A study of Mus musculus with 12 samples.

Results

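The genes described here encode 2 oxidative routes of the mitochondrion, the pyruvate entry and citrate cycle route and the fatty acid oxidation route, measured in the mouse Leydig line mLTC-1, which is immortalized. Members were taken by gene symbol from the count table: 43 of its 26214 symbols, 22 for pyruvate entry and the citrate cycle and 21 for fatty acid oxidation. All 43 symbols were in the table. The MSNBA group was exposed for 24 h to 100 µM MSNBA, a compound given by the series as a specific blocker of Glut5, which carries fructose into cells, and the control group had the DMSO vehicle for the same 24 h. Each group had 6 libraries of polyA RNA. Both groups grew in RPMI medium with fetal bovine serum, L-glutamine, penicillin and streptomycin. All libraries come from the same cell line, and no label states that replicates were grown apart. The p-values therefore cover the spread among these libraries, which may be technical.

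Pyruvate enters the mitochondrial matrix and is turned into acetyl-CoA by the pyruvate dehydrogenase complex or into oxaloacetate by pyruvate carboxylase. Citrate synthase joins the products, and the cycle returns oxaloacetate while loading electrons onto NAD and flavin carriers. Fatty acids enter as carnitine esters and lose acetyl-CoA in repeated rounds of dehydrogenation, hydration, a second dehydrogenation and thiolytic cleavage, with separate enzymes for long and short chains. Leydig cells make androgens, and their mitochondria also hold the enzyme that cleaves the cholesterol side chain, which draws on mitochondrial NADPH.

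Stretches before the start of 3 genes are printed for the members on which the results turn. Hadh was the member whose groups did not overlap. Acadm was the only other tested member with an unadjusted p under 0.05 in the reported edgeR test. Hadhb starts beside Hadha, its partner in the mitochondrial trifunctional protein. Each line gives the 250 bases before the RefSeq start in GRCm38.p6, 5′ to 3′ on the strand of the gene, and capitals mark 4 motifs on either strand: AGGTCA of nuclear receptors, its longer form AAGGTCA, the CCAAT box and the GC box GGGCGG. Positions are chr3:131272102-131272351 (minus strand) for Hadh, chr3:153944644-153944893 (minus strand) for Acadm and chr5:30155003-30155252 (plus strand) for Hadhb.
Hadh: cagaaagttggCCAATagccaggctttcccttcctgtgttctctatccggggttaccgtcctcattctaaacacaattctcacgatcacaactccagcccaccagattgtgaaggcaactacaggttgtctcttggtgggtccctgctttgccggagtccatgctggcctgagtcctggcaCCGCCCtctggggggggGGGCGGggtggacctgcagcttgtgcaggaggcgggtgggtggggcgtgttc
Acadm: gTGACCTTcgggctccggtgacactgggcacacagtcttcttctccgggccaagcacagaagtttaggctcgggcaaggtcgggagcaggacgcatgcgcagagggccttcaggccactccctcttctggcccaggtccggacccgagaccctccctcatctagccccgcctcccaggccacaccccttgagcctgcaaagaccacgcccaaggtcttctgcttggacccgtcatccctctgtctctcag
Hadhb: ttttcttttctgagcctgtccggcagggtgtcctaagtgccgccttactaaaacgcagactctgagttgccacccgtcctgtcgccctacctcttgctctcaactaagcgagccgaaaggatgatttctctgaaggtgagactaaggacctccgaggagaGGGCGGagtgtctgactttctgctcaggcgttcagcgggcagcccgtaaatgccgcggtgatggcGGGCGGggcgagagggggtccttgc

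Hadh and Hadhb each held the GC box GGGCGG in 2 places, and Hadh also held CCAAT once. Acadm held AAGGTCA once, which holds the shorter nuclear receptor motif. Over 27025 genes with such a window, 13.8% held the shorter nuclear receptor motif, 4.05% its longer form, 34.5% the CCAAT box and 32.9% the GC box. Of the 39 members with a sequence, 6 held the shorter receptor motif, 1 its longer form, 22 the CCAAT box and 24 the GC box. Hadha and Hadhb run in opposite directions with 272 bases between their starts, so that 228 bases of the 250-base windows are the same DNA. These matches are descriptions of the letters in this window and not sites of binding.

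Total counts ran from 94179 to 657251 in MSNBA libraries and from 59113 to 234225 in control libraries, which is 2.14-fold more in MSNBA by geometric mean (p = 0.0606 in a two-sided exact permutation test). After a filter on low counts, 2614 genes were tested by the edgeR quasi-likelihood test. All 7 Leydig cell markers passed the filter, with a summed level of 7569 to 9388 CPM (a count as its share of the library, on a fixed scale) in MSNBA libraries and 7490 to 10905 CPM in controls. None of the 27 markers of 5 other cell types passed it. Macrophage markers summed to 0 to 13.3 CPM in MSNBA and 0 to 35.7 CPM in controls, with Cd14 at 0 in every library. Endothelial markers summed to 0 to 21.2 and 0 to 50.8 CPM, fibroblast and peritubular markers to 22.8 to 127 and 51.2 to 143 CPM, Sertoli markers to 22.0 to 79.7 and 38.4 to 67.7 CPM and germ cell markers to 13.3 to 42.5 and 12.5 to 71.4 CPM, in MSNBA and in control libraries in that order. Controls 2 and 4 stood apart in 10 stress response genes, listed with earlier results of these data known. These genes summed to 1845 to 3340 CPM in MSNBA libraries, 3739 CPM in control 2 and 2582 CPM in control 4. In the other controls they summed to 1036 to 1494 CPM. Whether controls 2 and 4 carry the right group label was not tested.

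No gene of either route passed the threshold of an adjusted p of 0.05. By edgeR, 0 of the 31 tested members were called, against 2 of 2614 genes over the whole table (0.0765%). At an unadjusted p under 0.05 there were 2 members, Hadh and Acadm, both lower in MSNBA, against 8.95% of all tested genes in either direction of which 4.78% were lower and 4.17% higher. The other 12 members fell below the filter of that fit. DESeq2, which tested all 43 members, called 0 of them and 0 of 19576 genes (0%). Acads and Hadh were the 2 members with an unadjusted p under 0.05 by DESeq2, against 2.01% of those genes. With controls 2 and 4 left out, 0 of 34 tested members were called by edgeR, against 7 of 3076 genes (0.228%). An unadjusted p under 0.05 was then found for 4 members, Acadm and Hadh lower and Idh3g and Acot2 higher, against 9.14% of all genes tested in that fit. For Acot2 that p carries no weight: controls 2 and 4 held the most Acot2 of the controls, at 1026 and 1042 CPM, so leaving them out raised its fold change. In such bulk samples, fewer cells of a kind and less RNA per cell cannot be told apart.

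The summed level of each route overlapped between the groups. The 22 genes of pyruvate entry and the citrate cycle together measured 4494 to 4886 CPM in MSNBA libraries (median 4706 CPM) and 4453 to 5375 CPM in control libraries (median 4985 CPM). The means were 4684 ± 148 CPM and 4947 ± 429 CPM in MSNBA and control libraries (SD, n = 6 each). The 21 genes of fatty acid oxidation measured 5378 to 5960 CPM in MSNBA (median 5565 CPM) and 5489 to 6519 CPM in controls (median 5982 CPM), with means of 5644 ± 236 CPM and 5974 ± 416 CPM (SD, n = 6 each). The groups overlapped for both routes, and the highest controls of each, controls 2 and 4, were the libraries that also stood high on stress genes. For the citrate route, control 5 lay close to them, at 5295 CPM beside 5375 and 5328 CPM, with a stress sum of only 1353 CPM. Without Sdhb, control 5 was the highest control of that route, at 4060 CPM against 3557 CPM in control 2 and 3861 CPM in control 4. The part of the stress difference in the route sums was not tested. Within a library, the ratio of fatty acid oxidation counts to citrate route counts ran from 1.13 to 1.31 in MSNBA and from 1.05 to 1.31 in controls.

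**Figure D1:**
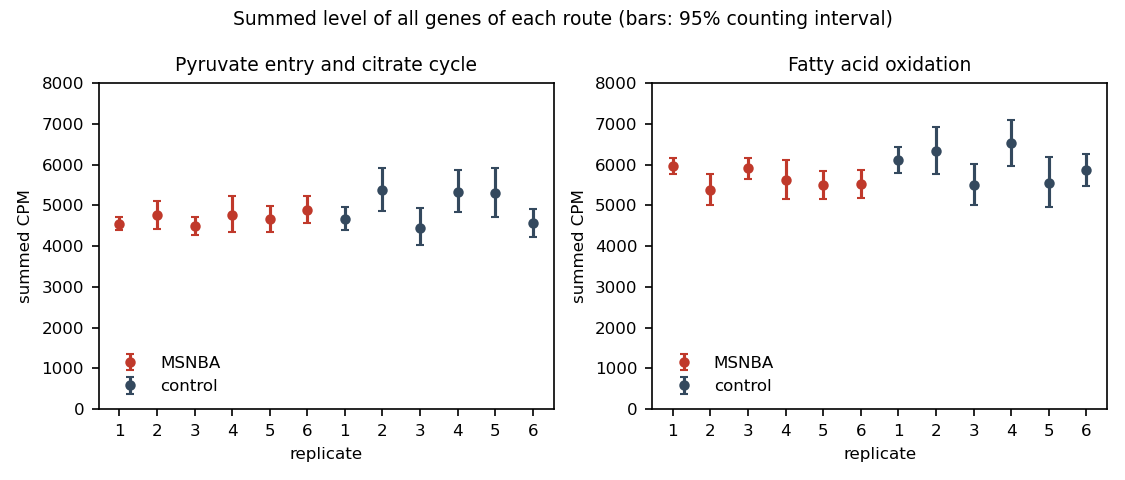
Summed CPM (y axis, over full library totals) of the 22 genes of pyruvate entry and the citrate cycle (left) and the 21 genes of fatty acid oxidation (right) in each MSNBA and control library (x axis, replicate number), with exact Poisson 95% intervals that cover counting error only. The MSNBA libraries sit between 4494 and 4886 CPM for the citrate route and between 5378 and 5960 CPM for fatty acid oxidation, within or just below the span of the controls.

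The tested fold changes lay on both sides of 0. Apart from Hadh and Acadm, none had an unadjusted p under 0.05 in the reported edgeR test, though others did in alternative edgeR fits. In the citrate route, 7 of 14 tested members had a log2 fold change above 0 and 7 below, with a median of -0.0072 and a range from -0.24 to 0.35. In fatty acid oxidation, 5 of 17 were above 0 and 12 below, with a median of -0.06 and a range from -0.49 to 0.10. Over all 2614 tested genes 51.5% were below 0, with a median of -0.0082. These counts and medians hold only members that passed the filter and are given as a description. The sign depended on the fit. By edgeR without the filter, with scaling factors taken over 19576 genes, the median of the same 2614 genes was 0.14. The medians of the routes were then 0.14 and 0.083. DESeq2, also run over 19576 genes, gave 0.0094 for the same 2614 genes and 0.0088 and -0.043 for the routes. The cause of the difference was not tested. The fitted value weighs deeper libraries more than the mean of CPM does. For Acaa1a, Eci2, Sdhc and Acot1 the sign of the fit and of the difference in means differ. Each of these fold changes was smaller than its SE, and the part of depth in this was not tested.

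**Figure D2:**
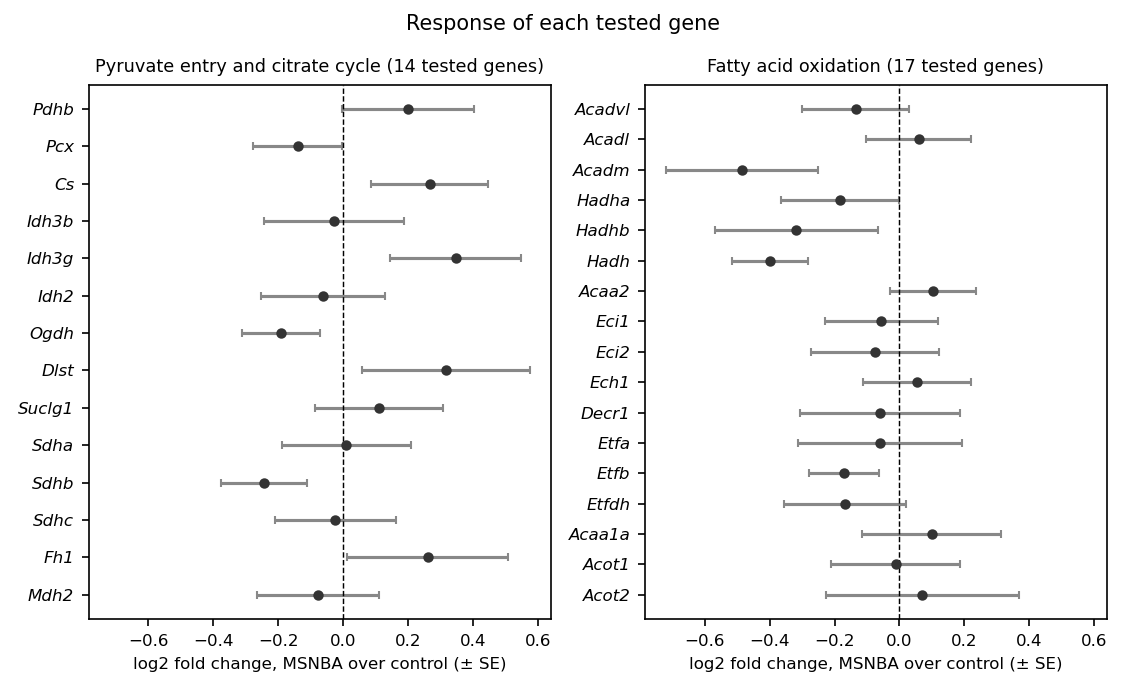
Log2 fold change of MSNBA over control with its standard error (x axis) for each of the 14 tested citrate route genes (left) and 17 tested fatty acid oxidation genes (right). Hadh at -0.40 and Acadm at -0.49 lie farthest below 0, and Idh3g at 0.35 and Dlst at 0.32 farthest above it.

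At the entry of pyruvate, Pcx, the pyruvate carboxylase gene, measured 424 to 641 normalized CPM in MSNBA (median 588) and 539 to 737 CPM in controls (median 609). It had -0.14 as its log2 fold change (SE 0.14, by edgeR adjusted p = 0.79), and 2 MSNBA libraries lay below all controls while the others overlapped. Pdhb, a subunit of the first enzyme of the pyruvate dehydrogenase complex, measured 171 ± 22.1 CPM in MSNBA and 144 ± 34.4 CPM in controls (SD, n = 6 each; log2 fold change 0.20, SE 0.20, adjusted p = 0.807 by edgeR). All 6 MSNBA libraries lay above the control median for Pdhb, but the groups overlapped. About 10.9% of the 50-base words of Pdhb transcripts also occur in another annotated gene, nearly all in Gm6123, so its counts hang on the handling of shared reads.

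The other members of the complex and the kinase member Pdk4 fell below the filter of the edgeR test. Pdha1, which encodes the partner subunit of Pdhb, had 115 counts in MSNBA and 45 in controls, which pooled to 72.0 CPM (exact Poisson 95% interval 59.4 to 86.4) and 66.2 CPM (48.3 to 88.6). Dlat, the acetyltransferase core, had 23 and 8 counts, and Dld, the shared lipoamide dehydrogenase, had 26 and 11 counts, in MSNBA and control libraries in that order. Pdk4, the kinase that switches the complex off when fat is burnt, had 9 counts over the MSNBA libraries and 5 over the controls and was at 0 in 5 of 12 libraries. Its pooled level was 5.63 CPM in MSNBA (2.57 to 10.7) and 7.36 CPM in controls (2.39 to 17.2), so a difference was not detectable at this depth.

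Among the enzymes that make citrate and carry it to succinyl-CoA, Cs, the citrate synthase gene, measured 265 to 352 CPM in MSNBA (median 298) and 144 to 314 CPM in controls (median 270). Controls 3 and 4 were the low libraries, at 156 and 144 CPM, and the other controls lay within the MSNBA range or just under it. Cs had 0.27 as its log2 fold change (SE 0.18, by edgeR adjusted p = 0.645), and it ran from 0.17 to 0.33 with 1 library left out. Idh3g, a regulatory subunit of the NAD-linked isocitrate dehydrogenase, measured 223 ± 37.5 CPM in MSNBA and 180 ± 48.6 CPM in controls (SD, n = 6 each), which gave 0.35 on the log2 scale (SE 0.20, by edgeR adjusted p = 0.603). Its companion subunit gene Idh3b measured 190 ± 68.5 and 198 ± 63.2 CPM in MSNBA and control libraries (SD, n = 6 each), a log2 fold change of -0.03 (SE 0.22). Idh3a, the catalytic subunit, had 70 counts in MSNBA and 31 in controls and fell below the filter. Idh2, which makes mitochondrial NADPH, measured 190 to 283 CPM in MSNBA and 148 to 353 CPM in controls (log2 fold change -0.06, SE 0.19).

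Ogdh, the first enzyme of the oxoglutarate dehydrogenase complex, measured 1042 to 1572 CPM in MSNBA (median 1445) and 1317 to 2105 CPM in controls (median 1572). MSNBA 1, the deepest library, lay alone at the low end, and 3 controls lay above all MSNBA libraries. The log2 fold change of Ogdh was -0.19 (SE 0.12, adjusted p = 0.631 by edgeR), and it was 0.03 with library depth in the model. Dlst, the succinyltransferase of that complex, measured 103 ± 34.3 CPM in MSNBA and 87.6 ± 35.7 CPM in controls (SD, n = 6 each; log2 fold change 0.32, SE 0.26). Its 95% interval, from 0.868-fold to 1.79-fold, reached higher than that of any other tested member.

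The succinate steps were led by Sdhb, the iron-sulfur subunit of succinate dehydrogenase, which carried the most counts of the citrate route. Sdhb measured 1193 to 1685 CPM in MSNBA (median 1316) and 1217 to 2316 CPM in controls (median 1534). Controls 2 and 4 were the highest libraries, and 3 MSNBA libraries lay below all controls. The log2 fold change was -0.24 (SE 0.13, adjusted p = 0.583 by edgeR), -0.12 without control 2, -0.033 without controls 2 and 4 and -0.055 with library depth in the model. The other subunits gave values nearer 0: the log2 fold change was 0.0095 (SE 0.20) for Sdha, the flavoprotein, and -0.02 (SE 0.19) for Sdhc, a membrane anchor. Sdhd, the other anchor, had 24 counts in MSNBA and 12 in controls and fell below the filter. The ratio of Sdhb to Sdha counts within a library ran from 4.83 to 9.83 in MSNBA and from 5.26 to 14.2 in controls, so the groups overlapped.

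Suclg1, the subunit shared by both succinyl-CoA ligases, had a log2 fold change of 0.11 (SE 0.20). The subunits that set the nucleotide, Suclg2 for GTP and Sucla2 for ATP, had 84 and 82 counts in MSNBA and 35 and 34 counts in controls. Their pooled levels were 52.6 CPM (41.9 to 65.1) in MSNBA and 51.5 CPM (35.9 to 71.6) in controls for Suclg2, and 51.3 CPM (40.8 to 63.7) in MSNBA and 50.0 CPM (34.6 to 69.9) in controls for Sucla2. The log2 fold change was 0.26 (SE 0.25) for Fh1, the fumarase gene, and -0.08 (SE 0.19) for Mdh2, the mitochondrial malate dehydrogenase gene.

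**Figure D3:**
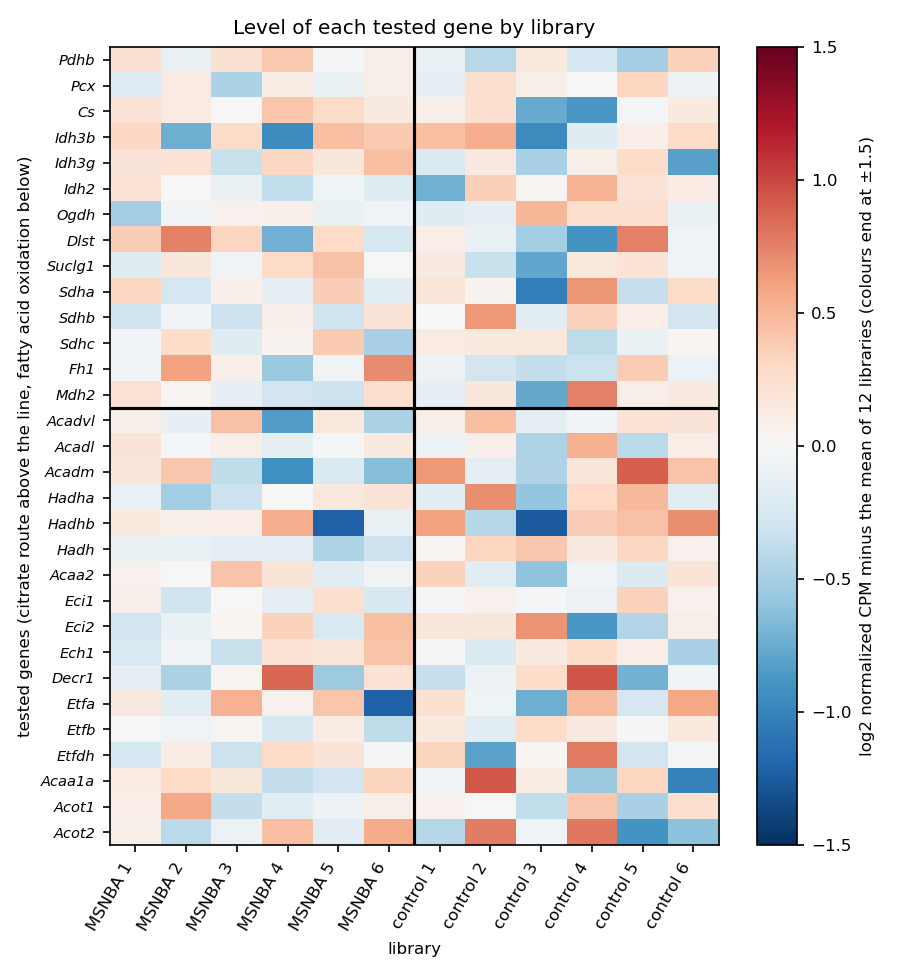
Log2 normalized CPM minus the mean over the 12 libraries (colour, red high and blue low) for each tested gene (rows, citrate route above the line) in each MSNBA and control library (columns). Hadh is the row in which all 6 MSNBA libraries lie below all 6 controls, and control 3 is pale to dark blue for most citrate route genes.

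For fatty acid oxidation, entry and transport came first. Cpt1a, the carnitine acyltransferase of the outer mitochondrial membrane, had 117 counts in MSNBA and 32 in controls, pooled to 73.2 CPM (60.5 to 87.7) in MSNBA and 47.1 CPM (32.2 to 66.5) in controls. It fell below the filter of the edgeR test, and the libraries overlapped, at 42.5 to 105 CPM in MSNBA and 11.9 to 104 CPM in controls. By DESeq2, which kept it, the log2 fold change was 0.60 (SE 0.42, adjusted p = 0.999). Cpt2, the partner of Cpt1a on the inner membrane, had 110 and 36 counts in MSNBA and control libraries. These pooled to 68.8 CPM (56.6 to 83.0) and 53.0 CPM (37.1 to 73.3).

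The acyl-CoA dehydrogenases, which open each round, divided by chain length. Acadvl, for very long chains, measured 394 ± 118 CPM in MSNBA and 454 ± 66.3 CPM in controls (SD, n = 6 each; log2 fold change -0.14, SE 0.17). Acadl, for long chains, measured 355 ± 30.9 and 345 ± 90.2 CPM in MSNBA and control libraries (SD, n = 6 each; log2 fold change 0.06, SE 0.16). Acadvl shares 1151 exonic bases with Dvl2 on the opposite strand, and the strand of counting is not given in the sources used here.

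Acadm, for medium chains, measured 67.8 to 169 CPM in MSNBA (median 104) and 93.6 to 238 CPM in controls (median 158). MSNBA 4 and 6 lay below all controls, controls 1, 5 and 6 lay above all MSNBA libraries, and the rest overlapped. The log2 fold change was -0.49 (SE 0.23, unadjusted p = 0.0437, adjusted p = 0.536 by edgeR), from 0.515-fold to 0.99-fold by its 95% interval, and 5 of 6 MSNBA libraries lay below the control median. With 1 library left out, its unadjusted p ran from 0.0158 without MSNBA 1 to 0.189 without control 1. Acads, for short chains, had 60 counts in MSNBA and 44 in controls, pooled to 37.5 CPM (28.6 to 48.3) and 64.7 CPM (47.0 to 86.9). Its libraries ran from 16.5 to 63.9 CPM in MSNBA and from 51.2 to 84.6 CPM in controls, so the groups overlapped. By DESeq2 the log2 fold change of Acads was -0.79 (SE 0.38, unadjusted p = 0.0393, adjusted p = 0.999).

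Hadh, the hydroxyacyl-CoA dehydrogenase for medium and short chains, stood farthest from the spread of its replicates. It lies on chromosome 3 from 131233419 to 131272101 of GRCm38.p6. Hadh measured 633 to 820.1 CPM in MSNBA (median 795) and 894 to 1154 CPM in controls (median 1023), and every MSNBA library lay below every control. Such groups without overlap occurred in 1 of 31 tested members and in 0.65% of all tested genes in either direction. The means were 760.3 ± 73.9 CPM in MSNBA and 1017 ± 107 CPM in controls (SD, n = 6 each), a log2 fold change of -0.40 (SE 0.12) or 0.644-fold to 0.894-fold by its 95% interval. Its unadjusted p was 0.0015, place 20 among the 2614 genes, and the adjusted p was 0.19 by edgeR, which does not pass the threshold. Over all alternatives tried, the log2 fold change ran from -0.45 to -0.24 and the adjusted p from 0.113 to 0.999. The value was -0.37 (unadjusted p = 0.0102) with library depth in the model and -0.24 (unadjusted p = 0.0864) without the filter on low counts, where the median of all tested genes had moved by a like amount.

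Hadha and Hadhb, which encode the trifunctional protein for long chains and share the stretch printed above, measured 228 to 373 CPM and 48.2 to 163 CPM in MSNBA. In controls they measured 218 to 529 CPM and 46.8 to 180.0 CPM. The log2 fold changes were -0.18 (SE 0.18) for Hadha and -0.32 (SE 0.25) for Hadhb, and the groups overlapped for both. Hadhb was lowest in MSNBA 5 and control 3, where Hadha was not the lowest of its MSNBA group but was the lowest control. The ratio of Hadha to Hadhb counts ran from 1.93 to 7.57 in MSNBA and from 1.62 to 6.40 in controls. About 19.7% of the 50-base words of Hadhb transcripts recur in another gene, mostly Gm13910.

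Acaa2, the mitochondrial thiolase that closes the round, measured 744 to 1117 CPM in MSNBA (median 852) and 546 to 1052 CPM in controls (median 773). The groups overlapped, with 0.10 as the log2 fold change (SE 0.13, by edgeR adjusted p = 0.857). The auxiliary enzymes for unsaturated fatty acids gave log2 fold changes from -0.08 for Eci2 to 0.05 for Ech1. Eci1 and Eci2 are enoyl-CoA isomerases, Ech1 is a dienoyl-CoA isomerase and Decr1 is a dienoyl-CoA reductase. Eci1 lay at 194 to 282 CPM in MSNBA and 224 to 303 CPM in controls, and Decr1 at 96.4 to 257 CPM and 86.7 to 273 CPM, in that order.

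The electrons of the acyl-CoA dehydrogenases pass to the electron transfer flavoprotein and from there to ubiquinone. Etfb, a subunit of that flavoprotein and the most counted member of the route, measured 1133 to 1583 CPM in MSNBA (median 1443) and 1324 to 1778 CPM in controls (median 1622). All 6 MSNBA libraries lay below the control median and 4 controls lay above every MSNBA library, with overlap among the rest. The log2 fold change was -0.17 (SE 0.11, adjusted p = 0.631 by edgeR), and its 95% interval, from 0.765-fold to 1.03-fold, spanned no change. Etfa, the other subunit, gave -0.06 on the log2 scale (SE 0.25), and Etfdh, the ubiquinone oxidoreductase, gave -0.17 (SE 0.19). About 44.8% of the 50-base words of Etfb transcripts recur in another gene, nearly all in Gm45233, a gene model on the same strand that overlaps its exons.

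Of the peroxisomal members, Ehhadh, the bifunctional enzyme, had 6 counts in MSNBA and 4 in controls and was at 0 in 7 of 12 libraries. Acaa1a, a peroxisomal thiolase, measured 274 ± 53.3 CPM in MSNBA and 276 ± 129 CPM in controls (SD, n = 6 each; log2 fold change 0.10, SE 0.21), and shares 12.4% of its 50-base words with Acaa1b. A difference in Ehhadh was not detectable at this depth.

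The acyl-CoA thioesterases Acot1 (cytosolic) and Acot2 (mitochondrial), which release free fatty acids from CoA, are near copies: Acot2 shares 24.6% of its 50-base words with Acot1, so their counts are uncertain where reads were shared. Acot2 measured 456 to 887 CPM in MSNBA (median 607) and 325 to 1042 CPM in controls (median 513). The high libraries were MSNBA 4 and 6, at 827 and 887 CPM, and controls 2 and 4, at 1026 and 1042 CPM, while the other controls lay between 325 and 577 CPM. MSNBA 4 and 6 and controls 2 and 4 were also the 4 libraries with the highest sums of the stress response genes within their groups, at 2591 and 3340 CPM in MSNBA and 3739 and 2582 CPM in the controls, and the part of that in Acot2 was not tested. The log2 fold change of Acot2 was 0.07 (SE 0.30, adjusted p = 0.967 by edgeR), and it was 0.55 without controls 2 and 4 (adjusted p = 0.25, against a range of 0.25 to 0.999 over its alternatives). Since those controls held the most Acot2, the larger value followed from leaving them out. The biological coefficient of variation of Acot2 was 0.341, at percentile 98.6 of all tested genes, whereas the other tested members lay between 0.0854 and 0.178. Acot1 measured 141 to 270.0 CPM in MSNBA and 130.0 to 241 CPM in controls, with a log2 fold change of -0.01 (SE 0.20).

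**Figure D4:**
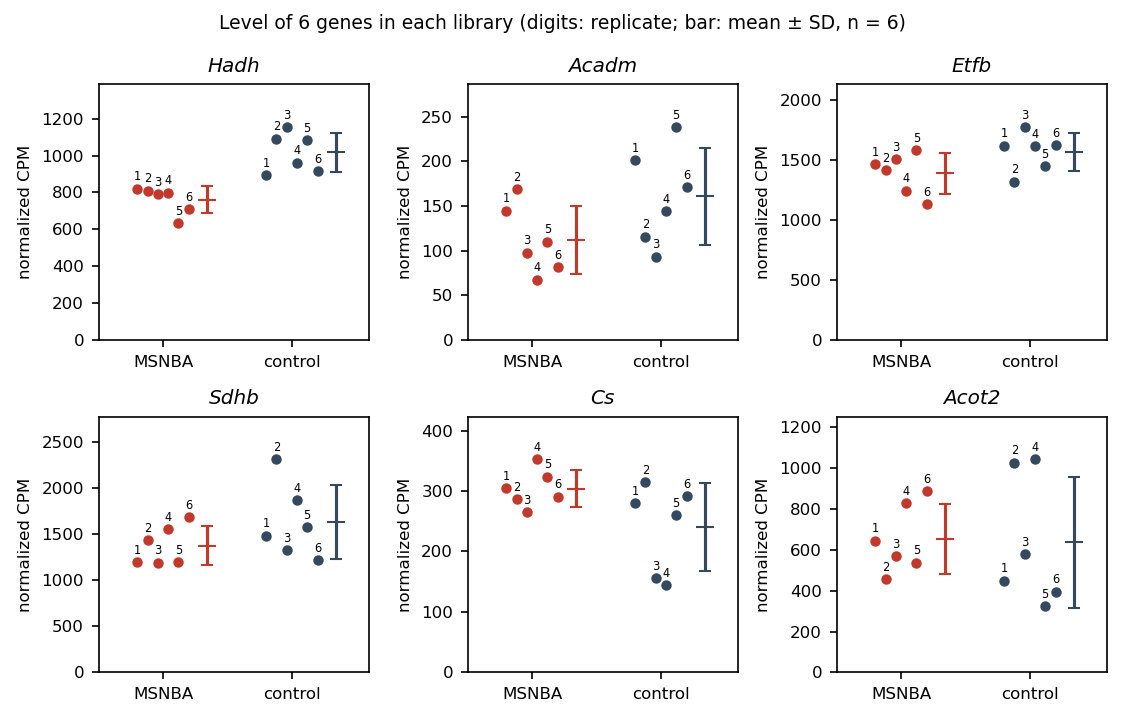
Normalized CPM (y axis, from 0) of 6 genes in each MSNBA and control library (points, with replicate number) and the mean ± SD (bars, n = 6). Hadh lies at 633 to 820.1 CPM in MSNBA and 894 to 1154 CPM in controls with no overlap, whereas the other 5 genes overlap and Acot2 is split within the controls.

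Other genes of both routes were read from lists beside the members. Over all tested genes, 0.0765% were called by edgeR and 8.95% had an unadjusted p under 0.05. Of 30 other pyruvate and citrate cycle genes, 12 were tested and 0 were called by edgeR, with 1 at an unadjusted p under 0.05, and the median log2 fold change was 0.13. That gene was Pck2, the mitochondrial enzyme that makes phosphoenolpyruvate from oxaloacetate, at 190 to 321 CPM in MSNBA and 86.7 to 265 CPM in controls (log2 fold change 0.56, SE 0.20, adjusted p = 0.345 by edgeR).

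Of 43 other fatty acid oxidation genes, 18 were tested and 0 were called by edgeR, against 0.0765% of all tested genes. An unadjusted p under 0.05 was found for 3, against 8.95% of all tested genes, and the median log2 fold change was 0.09. Slc25a20, which carries acylcarnitines across the inner membrane, measured 68.8 to 135 CPM in MSNBA and 106 to 195 CPM in controls (log2 fold change -0.49, SE 0.24, adjusted p = 0.536 by edgeR). Scp2, a peroxisomal thiolase and sterol carrier gene, measured 143 to 244 CPM in MSNBA and 62.4 to 176 CPM in controls (log2 fold change 0.48, SE 0.22, adjusted p = 0.489 by edgeR). The groups overlapped for both Slc25a20 and Scp2.

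Regulators of oxidative metabolism were mostly below the filter, with 2 of 15 tested and 0 called by edgeR, against 0.0765% of all tested genes. Of them 1, Ppara, had an unadjusted p under 0.05, against 8.95% of all tested genes. Ppara, the receptor that switches on fatty acid oxidation genes in liver, measured 112 to 194 CPM in MSNBA (median 140.4) and 64.1 to 281 CPM in controls (median 205). It had -0.57 as its log2 fold change (SE 0.22, unadjusted p = 0.0143, adjusted p = 0.388 by edgeR), and the MSNBA libraries lay within the range of the controls. Rxra, its partner receptor, had a log2 fold change of 0.06 (SE 0.19). Ppargc1a, a coactivator of mitochondrial genes, had 8 counts in MSNBA and 5 in controls.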

How the data were processed

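PolyA RNA of 12 mLTC-1 libraries was measured. The authors deposited raw counts per gene symbol, 1 column per library, without normalization. BWA 0.7.4.4 and mm10 are named in the submitters' processing notes. The name of the deposited counts reads as counts of unique molecular identifiers on RefSeq genes. Beyond that name, how reads were counted and with which strand is not given in the sources used here. Groups and replicate numbers came from the labels. The column order of the counts can also be read as another grouping. It places controls 2 and 4 after the other controls and next to MSNBA 5 and 3, ahead of the other MSNBA libraries. Controls 2 and 4 had stress gene sums of 3739 and 2582 CPM, and MSNBA 5 and 3 had 1845 and 2423 CPM. Which grouping is right was not tested, and every contrast here rests on the labels. Total counts per library ran from 59113 to 657251.

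Genes were filtered by filterByExpr, scaled by TMM and tested by the robust edgeR quasi-likelihood F test (R 4.3.3, edgeR 4.0.16, limma 3.58.1) with treatment as the single term. Tests were two-sided, with Benjamini-Hochberg adjustment over 2614 genes. SE is the log2 fold change over the square root of F. Normalized CPM of single genes are over tested genes with TMM factors, whereas pooled and summed CPM are over full library totals. Poisson intervals are exact at 95% and cover counting error only. The fit was tested on simulated data. Replicate numbers were not used to pair the samples, since pairing by number was not shown, though not excluded. DESeq2 1.42.0, other scalings, filters, a depth term, a replicate block and left-out libraries were alternatives. Within-group library pairs differed by 1.16 to 2.08 times the counting noise (chi-square per degree of freedom). Each library was kept as a unit, although this ratio cannot show whether libraries were grown apart. Positions and promoters came from RefSeq GRCm38.p6, the assembly of mm10, with 43 of 43 members matched, 39 with a promoter. Exon overlaps and 50-base words came from GENCODE M21 on the same assembly.

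Named genes were all members, with full values for those at an unadjusted p under 0.05, the 4 most counted tested members of each route and Hadh; of other pathway genes, those at an unadjusted p under 0.05, of which 1 is not reported here. Rxra and Ppargc1a were named after their values were seen. Members and lists were chosen with earlier results of these data known.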

Additional observations from a re-analysis of the deposited data

Results flagged for a closer look

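A single library far from its group was looked for in 72 groups of 6, and 4 groups had one, against about 3.6 by chance. Ogdh measured 1042 CPM in MSNBA 1, and the next MSNBA library had 1398 CPM. In control 5, Fh1 measured 130.0 CPM with the next control at 95.2 CPM, and Eci1 measured 303.3 CPM with the next control at 248.6 CPM. The mean centred log2 level of the 14 tested citrate route genes was -0.3192 in control 3, and the next control had -0.0363.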

How the results depend on the processing

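In the 20 alternatives, 0 members of either route were called, and from 1 to 4 had an unadjusted p under 0.05. These were from 3.23% to 12.9% of the members tested, against 2.01% to 11.8% of all genes tested. The ends of the 2 ranges belong to different settings. With library depth as a term, Acadm, Etfb and Hadh (lower) and Idh3g (higher) were the members under 0.05. The shares there were 12.9% of members and 8.88% of genes. With the stricter filter they were 4% and 11.8%, and by DESeq2 4.65% and 2.01%. Over all genes, 2 were called in the reported test and with RLE factors or library size alone, 0 by DESeq2 and with library depth as a term, 15 without the filter, 1 with the stricter filter of 20 counts in 6 libraries, 7 without controls 2 and 4 and from 0 to 5 with 1 library left out. The median log2 fold change of the citrate route was 0.14 without the filter and 0.12 without controls 2 and 4, and that of fatty acid oxidation was 0.083 without the filter; their ranges with 1 library left out were -0.041 to 0.093 and -0.13 to -0.033. Of 614 values of single members, 555 kept their sign and 59 turned, in 19 of 31 members, and none of these passed in any alternative. The sign turned without the filter for Pcx (0.0062), Idh3b (0.11), Idh2 (0.086), Sdhc (0.12), Mdh2 (0.072), Acadvl (0.019), Eci1 (0.089), Eci2 (0.070), Decr1 (0.086), Etfa (0.083) and Acot1 (0.13). It turned by DESeq2 for Acot1 (0.013), with library depth as a term for Pcx (0.044), Ogdh (0.025), Sdha (-0.17), Sdhc (0.0062), Acadl (-0.013), Acaa2 (-0.062), Eci2 (0.027) and Decr1 (0.16) and without controls 2 and 4 for Idh2 (0.14), Mdh2 (0.12), Hadha (0.023), Decr1 (0.15) and Acot1 (0.052). With 1 library left out, the sign turned in ranges of -0.090 to 0.32 for Acaa1a, -0.011 to 0.17 for Acadl, -0.11 to 0.092 for Acot1, -0.059 to 0.26 for Acot2, -0.21 to 0.14 for Decr1, -0.045 to 0.14 for Ech1, -0.18 to 0.043 for Eci2, -0.18 to 0.069 for Etfa, -0.28 to 0.038 for Idh2, -0.15 to 0.085 for Idh3b, -0.18 to 0.069 for Mdh2, -0.11 to 0.12 for Sdha and -0.10 to 0.051 for Sdhc. Without the filter the median of the 2614 genes was 0.14, and for every setting the cause was not tested. The correlation of same-number residuals passed 0.1 in 2 of 6 pairs, and 4 of 12 libraries correlated best with their own number, so the numbers were not used to pair samples. With the replicate block, 3 genes were called over the table, 0 of them members, the route medians were 0.013 and -0.079, and the sign turned for Decr1 (0.020) and Acot1 (0.038). Depth limits the 12 members below the filter, which had from 10 to 160 counts in all libraries together.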
